A study of Mus musculus with 4 samples.

Results

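Binding of the glucocorticoid receptor (GR) was mapped by ChIP-seq in mouse liver, and 2119 shared GR regions at the promoters of protein-coding genes are described here. A region was called shared when a region of the dexamethasone set and a region of the vehicle set overlapped by at least 1 bp and neither overlapped a further region. It was placed at a promoter when the dexamethasone region reached into the stretch from 2000 bp upstream to 200 bp downstream of a protein-coding transcription start site (TSS) of GENCODE M21 on the mm10 build. The dexamethasone set held 31343 regions and the vehicle set 5883, of which 5665 pairs matched one to one, 2119 at a coding promoter and 3546 elsewhere. Members were thus chosen by the presence of a region call in both sets, and those calls were made partly on the libraries used here, so that presence after both treatments, as well as position near a TSS, belongs to the choice of regions and is not a finding.

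All mice were male, 6 to 8 weeks old, and livers were collected in the dark phase (ZT18), 1 h after an intraperitoneal injection. The ZT18 Dex group (2 libraries) received 1 mg/kg dexamethasone, a synthetic GR agonist, and the ZT18 Vehicle group (2 libraries) received the cyclodextrin carrier alone. For all 4 libraries the labelled genotype is Hnf4a fl/fl Alb-Cre +/-, in which Cre under the albumin promoter would act in hepatocytes, whereas the study's methods speak of C57BL/6 mice. The sources leave this difference unresolved. Each library pooled 3 immunoprecipitation reactions, and nothing in the labels says that each came from a separate animal, so that p-values cover no more than the spread among these libraries.

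GR rests in the cytoplasm in complex with chaperones until a glucocorticoid binds it, and then enters the nucleus and binds DNA as a dimer at a palindrome, the glucocorticoid response element (GRE). In liver it is known for driving gluconeogenesis and amino acid breakdown in fasting and for modulating the acute phase response. GR signal is also found at sites that lack a GRE, next to other factors, and many promoters of widely expressed genes lie in CpG islands, which carry sites for factors of the SP and KLF family (GC box), the ETS family and NRF1. Corticosterone, the natural ligand in mice, is present without any drug, so that the receptor can be active in vehicle livers too.

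Sequences of members with and without a GRE are shown first, each read 5′ to 3′ on the strand of the nearest gene from GRCm38 (mm10), with the motif in capitals. The relaxed GRE was searched on both strands as GNACA and TGTNC with 3 bases between them. The first 4 sequences are the GRE windows with the highest mean Dex signal among those that lie outside annotated exons. They lie upstream of a TSS of Per1, Fkbp5 or Sys1. Per1 is a repressor of the circadian clock, Fkbp5 a co-chaperone that lowers the affinity of GR for hormone, and Sys1 a Golgi protein. At Per1 that TSS is not the nearest coding TSS. The nearer edges of the Per1 regions lie 226 and 1524 bp downstream of a nearer one. The windows are at chr11:69099387-69099459 and chr11:69097047-69097119 (Per1, plus strand), chr17:28518150-28518222 (Fkbp5, minus strand) and chr2:164455901-164455973 (Sys1, plus strand).
Per1, 729 bp upstream: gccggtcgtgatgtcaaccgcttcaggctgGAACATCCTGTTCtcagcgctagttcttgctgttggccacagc
Per1, 1865 bp upstream: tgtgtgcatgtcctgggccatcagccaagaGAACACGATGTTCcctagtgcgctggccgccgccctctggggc
Fkbp5, 662 bp upstream: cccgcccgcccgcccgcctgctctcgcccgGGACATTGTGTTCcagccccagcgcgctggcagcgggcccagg
Sys1, 1039 bp upstream: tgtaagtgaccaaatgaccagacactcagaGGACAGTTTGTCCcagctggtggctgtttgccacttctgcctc

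Of 4 members with a GRE whose signal was called higher after dexamethasone, 3 had a window outside annotated exons, and these were picked for display after their values were seen. They lie at chr19:43524997-43525069 (Got1, minus strand), chr10:81605740-81605812 (BC025920, plus strand) and chr16:97764139-97764211 (Ripk4, minus strand). Got1 encodes the cytosolic aspartate aminotransferase and Ripk4 a serine/threonine kinase known from epidermis.
Got1, 428 bp upstream: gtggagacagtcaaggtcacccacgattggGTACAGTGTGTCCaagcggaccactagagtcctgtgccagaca
BC025920, 527 bp upstream: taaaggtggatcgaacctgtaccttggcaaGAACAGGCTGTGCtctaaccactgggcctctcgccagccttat
Ripk4, 388 bp upstream: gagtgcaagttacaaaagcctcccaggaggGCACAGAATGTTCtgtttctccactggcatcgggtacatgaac

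Most members hold no relaxed GRE in the 200 bp about the region centre, the window that was searched. The next 4 windows lie in members with an ETS match (CCGGAAG) or a GC box (GGGCGG, or CCGCCC on the other strand) and no GRE, again those with the highest mean Dex signal outside annotated exons. Their positions are chr17:28512826-28512892 (a second Fkbp5 region, minus strand), chr1:88277300-88277365 (Hjurp, a histone chaperone gene, minus strand), chr10:127355514-127355579 (Inhbe, an activin subunit, minus strand) and chr6:90463647-90463712 (Klf15, a transcription factor, plus strand).
Fkbp5, ETS, 1502 bp upstream: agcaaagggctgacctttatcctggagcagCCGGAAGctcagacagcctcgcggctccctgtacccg
Hjurp, GC box, 173 bp downstream: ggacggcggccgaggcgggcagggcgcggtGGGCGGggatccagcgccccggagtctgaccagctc
Inhbe, GC box, 1136 bp upstream: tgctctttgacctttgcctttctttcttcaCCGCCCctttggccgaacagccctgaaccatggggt
Klf15, GC box, 1624 bp upstream: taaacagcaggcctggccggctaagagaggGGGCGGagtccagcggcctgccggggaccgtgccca

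High GR signal was thus not limited to regions with a GRE in the 200 bp about the centre, though a GRE may lie elsewhere in a region. A relaxed GRE was found in 26 members in this window and in 70 over the whole region. The Fkbp5 region with the ETS match had 25.3 and 38.1 RPKM in Dex and 7.76 and 14.8 RPKM in Vehicle. Inhbe had 9.51 and 15.2 RPKM in Dex and 4.67 and 8.08 RPKM in Vehicle, and Klf15 had 7.97 and 11.8 RPKM in Dex and 6.1 and 6.41 RPKM in Vehicle.

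CpG-rich promoters of housekeeping genes are represented by 4 windows about an ETS match at proteasome and ribosomal protein genes, picked after their values were seen. Of such windows outside annotated exons in the ribosomal, oxidative phosphorylation, proteasome and spliceosome lists, these had the highest mean Dex signal. They lie at chr12:55398663-55398729 (Psma6, plus strand), chr4:86857422-86857488 (Rps6, minus strand), chr15:5116560-5116626 (Rpl37, plus strand) and chr14:45329694-45329760 (Psmc6, plus strand).
Psma6, 79 bp upstream: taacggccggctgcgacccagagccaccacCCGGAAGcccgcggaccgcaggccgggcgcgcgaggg
Rps6, 43 bp upstream: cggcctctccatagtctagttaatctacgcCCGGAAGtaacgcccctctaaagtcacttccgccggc
Rpl37, 52 bp upstream: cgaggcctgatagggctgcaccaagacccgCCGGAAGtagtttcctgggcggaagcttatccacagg
Psmc6, 61 bp upstream: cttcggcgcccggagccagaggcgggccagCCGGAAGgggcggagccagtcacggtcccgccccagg

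Libraries held 64169077 and 65097597 reads in Dex, and 91494606 and 29179899 in Vehicle, as recovered from the counts and RPKM. Whether these totals include spike-in reads was not settled, and every RPKM and fold change below rests on them. Signal is given as RPKM, reads per kb of region scaled to library depth, and was counted over each treatment's own region, with a median width of 857 bp for Dex regions and 554 bp for Vehicle regions among the members. Median reads per member were 157 and 170 in Dex and 122 and 50 in Vehicle, and the lowest count of any member in a library was 6. Across members, as a description, Spearman's rho of one replicate with the other was 0.794 in Dex and 0.530 in Vehicle, and Pearson's r was 0.904 and 0.669 in the same order. Vehicle 2 stood above Vehicle 1 by a median log2 ratio of 0.35 over the members, whereas Dex 2 stood above Dex 1 by 0.14. In bulk liver, fewer cells with GR at a site and less GR per cell cannot be told apart.

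The members touched the promoters of 2381 genes, 10.9% of 21842 protein-coding gene symbols. Most genes (2329) had 1 member, 47 had 2, and 5 had 3 or more. A region spanned the promoters of 2 genes in 307 cases and of 3 genes in 7 cases, as divergent and overlapping genes share their upstream DNA. Chromosome X held only 2 members (0.0944%), at Rps4x and Mid1, against 14 of the other shared regions (0.395%) and 3.66% of protein-coding TSSs.

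Within the promoter window the members gathered at the TSS itself. Distances were taken to the nearest coding TSS among those whose promoter window the region reached. Another coding TSS can lie nearer, as at both Per1 regions and at Brox, each of which lies downstream of that nearer TSS. The median centre lay 16 bp downstream of the TSS so chosen, with quartiles at -103.5 and 136.5 bp, and 1815 members (85.7%) covered a TSS. Centres within 250 bp of the TSS accounted for 1568 members (74%), centres 250 to 1000 bp upstream for 189 (8.92%), centres over 1000 bp upstream for 120 (5.66%), and centres over 250 bp downstream for 242 (11.4%). At the upstream edge of the window, the 3 members just inside had their nearer edge 1998, 1984 and 1983 bp from the TSS and had Dex RPKM of 2.59 to 8.01. The 3 shared regions just outside had it 2081, 2103 and 2117 bp from the TSS, with Dex RPKM of 2.37 to 13.9. The bordering regions overlapped in level on both sides of the limit.

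The members were rich in GC and in CpG. In 200 bp about the centre, the median GC content was 62.5% and the median ratio of observed to expected CpG was 0.77, against 50% and 0.225 at the other shared regions. A window was called CpG-rich at a GC content of at least 50% and a CpG ratio of at least 0.6, which held for 1425 members (67.2%) and for 162 other shared regions (4.57%). Among 54317 windows of 200 bp upstream of protein-coding TSSs, whether bound or not, 41.6% were CpG-rich, with a median GC content of 56.5% and a median CpG ratio of 0.52. Annotated repeats covered a mean of 5.27% of member windows and 11.3% of the windows at other shared regions.

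The GC box was the most frequent of the promoter motifs searched, and the GRE was in few members but more often than in promoter windows at large. The GC box (GGGCGG) was present in 200 bp about the centre of 39.4% of members, against 6.2% of other shared regions and 38% of the promoter windows. The ETS motif (CCGGAAG) was found in 12.9% of members, 1.48% of other shared regions and 8.01% of promoter windows, and the YY1 motif (AAGATGGCG) in 2.22%, 0.114% and 0.724% of these sets. NRF1 sites (CGCATGCG) were found in 1.6% of members, 0.0284% of other shared regions and 1.86% of promoter windows. The relaxed GRE was present in 26 members (1.23%), against 165 of 3518 other shared regions with sequence (4.69%) and 0.234% of promoter windows. The promoter windows lie directly upstream of a TSS, whereas members can be centred farther away. Of the members centred within 250 bp of the TSS 0.574% held a GRE. The single GR site (AGAACA, which can form part of a GRE) was in 9.53% of members, 23% of other shared regions and 10.9% of promoter windows.

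Motifs of hepatocyte factors were more frequent at the other shared regions than at the members. The C/EBP motif (TTGCNCAA) occurred in 2.27% of members, 6.17% of other shared regions and 1.76% of promoter windows. A core of the HNF4A element (CAAAGTCCA) occurred in 0.566% of members, 2.25% of other shared regions and 0.311% of promoter windows. The E-box (CACGTG), the target of CLOCK and BMAL1, occurred in 5.29%, 4.43% and 5.51% of the same sets. The CCAAT box (AGCCAAT) was found in 3.35% of members, 3.04% of other shared regions and 6.81% of promoter windows, and the CRE (TGACGTCA) in 1.98%, 0.398% and 1.71%. The D-box (TTATGTAA), bound by DBP and its relatives, was in 7 members (0.33%), none of them CpG-rich. All motifs were searched on both strands and a match is a run of letters, not evidence of a bound factor.

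In RPKM, GR signal at these promoters was low beside the other shared regions. Members were also wider, with medians of 857 bp (Dex) and 554 bp (Vehicle) against 690 and 440 bp. Median reads were 157 and 170 in Dex and 122 and 50 in Vehicle. Those of the other shared regions were 220 and 295 in Dex and 127 and 52 in Vehicle. In Vehicle the counts were thus close, and the gap in RPKM rests largely on width. The median RPKM of members was 2.72 and 2.87 in Dex and 2.37 and 3.02 in Vehicle, against 4.80 and 6.30 in Dex and 3.09 and 3.91 in Vehicle at the other shared regions. Members with a GRE lay above the other shared regions, with medians of 7.39 and 9.78 in Dex and 4.09 and 5.37 in Vehicle. So did the 120 members centred over 1000 bp upstream, with 5.28 and 7.49 in Dex and 3.47 and 4.84 in Vehicle. Of these 120, 8 held a GRE. CpG-poor members had medians of 3.61 and 4.48 in Dex and 2.71 and 3.55 in Vehicle, and CpG-rich members 2.58 and 2.67 in Dex and 2.24 and 2.86 in Vehicle. For CpG-rich members the Dex libraries thus lay between the Vehicle libraries, and for the members with a GRE both Dex medians lay above both Vehicle medians.

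**Figure D1:**
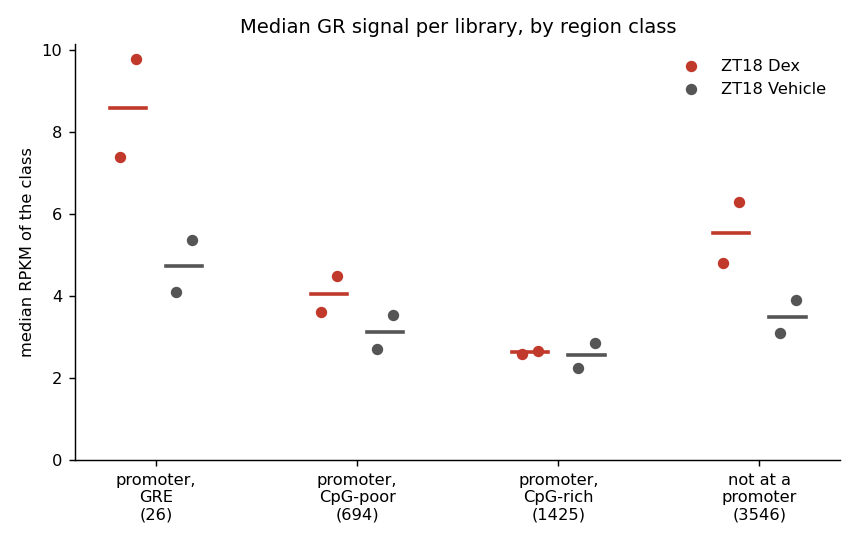
Median RPKM in each of the 4 libraries (points) and the mean of each group's 2 medians (short lines) for members with a relaxed GRE, CpG-poor members, CpG-rich members, and shared regions away from coding promoters, with the number of regions in parentheses; the members with a GRE are also counted in the CpG class they belong to. Dex lies above Vehicle in the GRE class (7.39 and 9.78 against 4.09 and 5.37) and away from promoters, and the groups overlap in the CpG-rich class.

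Whether promoters responded to dexamethasone like the other shared sites was asked within each library, which does not depend on how libraries are scaled. The median log2 RPKM of members minus that of other shared regions was -0.82 and -1.13 in Dex and -0.38 and -0.37 in Vehicle. The difference between the groups was -0.60 on the log2 scale, so members stood further below the other shared regions in both Dex libraries than in both Vehicle libraries (exact permutation test, two-sided, p = 0.33, the smallest that 2 against 2 samples can give). The difference was -0.31 when only CpG-poor regions were compared (exact permutation p = 0.33) and -0.04 when only CpG-rich regions were compared (exact permutation p = 0.667). Among members, the excess of GRE over other members was 1.44 and 1.78 in Dex and 0.79 and 0.84 in Vehicle, a group difference of 0.80 (exact permutation p = 0.33). CpG-rich members stood below CpG-poor members by a log2 difference of -0.48 and -0.75 in Dex and -0.27 and -0.31 in Vehicle, a group difference of -0.32 (exact permutation p = 0.33). Members centred within 250 bp of the TSS differed from those farther away by a group difference of -0.12 (exact permutation p = 0.33). Over these 6 contrasts the Benjamini-Hochberg adjusted p was 0.4 for each except that within CpG-rich regions, at 0.667, and none can pass a threshold at this sample size.

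Tested region by region over all 5665 shared regions, 64 of the 2119 members (3.02%) were called higher after dexamethasone and 0 lower (edgeR's quasi-likelihood test, Benjamini-Hochberg adjusted p threshold 0.05). The background over all shared regions was 11.8% called higher and 0% called lower, and 602 of the regions away from promoters (17%) were called higher. At an unadjusted p under 0.05, edgeR gave 202 members higher and 12 lower, and DESeq2 with the same library totals called 90 higher and 0 lower. For these counts the share over all shared regions was not taken, so they are not read as results about the members. The 90 held 54 of the 64 edgeR calls. The 64 calls had a median fold of 2.39. Over all members the median log2 fold change was 0.14, with quartiles of -0.09 and 0.40, and 66% were above 0, but with TMM factors the median was -0.33 and the calls split into 36 higher and 62 lower (background 5.9% and 1.78%). TMM moved the median of all shared regions by -0.47, and 35 of its 36 higher calls were among the 64. Pair by pair, the median log2 ratio to Vehicle 1 was 0.25 for Dex 1 and 0.34 for Dex 2, and that to Vehicle 2 was -0.06 for Dex 1 and 0.03 for Dex 2. Without Dex 1 there were 23 higher calls, without Dex 2 0, without Vehicle 1 1, and without Vehicle 2 15.

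Counted without a test, both Dex libraries exceeded both Vehicle libraries at 684 members (32.3%, background 51.5%), and both lay below at 174 (8.21%, background 4.78%). Without correction for the wider Dex regions 1038 members would be called higher, so that the width of the called interval weighs on the comparison.

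**Figure D2:**
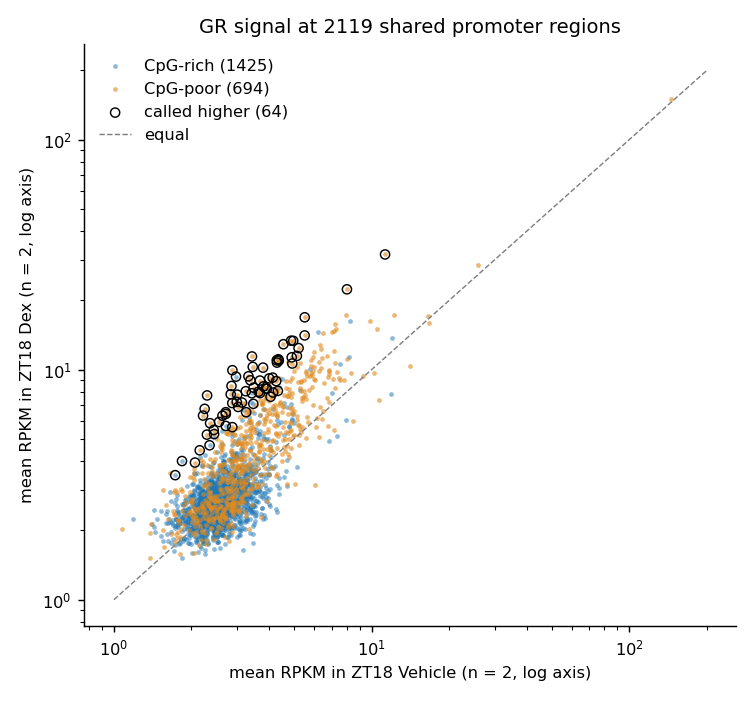
Mean RPKM in ZT18 Dex against mean RPKM in ZT18 Vehicle for the 2119 members, on log axes, with CpG-rich members in blue, CpG-poor members in orange and the 64 members called higher circled. Most of the 1425 CpG-rich members sit in a dense group near the line of equality, and 56 of the 64 circled members are CpG-poor.

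The calls differed with base composition and position among the members. Over all shared regions 11.8% were called higher, and 17% of those away from promoters. The shares given below for members with a GRE and for those over 1000 bp upstream lay near these. Of CpG-poor members, 56 of 694 (8.07%) were called higher, against 8 of 1425 CpG-rich members (0.561%). The median log2 fold change was 0.33 in CpG-poor members and 0.07 in CpG-rich members, and with TMM factors it was -0.14 and -0.39, with 34 higher and 11 lower calls in CpG-poor members against 2 higher and 51 lower calls in CpG-rich members. Among members with a GRE, 4 of 26 (15.4%) were called higher, at Mt2, Got1, BC025920 and Ripk4, and 25 of 26 had a positive log2 fold change, or 20 of 26 with TMM factors, under which 2 were called higher, at Mt2 and Got1. Of the 64 calls, 60 had no relaxed GRE in the 200 bp window, although 29.7% had a single GR site, against 8.91% of the members not called. The GC box was present in 9.38% of called members and 40.3% of those not called. Most calls were CpG-poor, and of all CpG-poor members 16% had the single GR site and 17% the GC box. Called members lay farther from the TSS, with 21 of 120 (17.5%) called at over 1000 bp upstream, 11 of 189 (5.82%) at 250 to 1000 bp upstream, 30 of 1568 (1.91%) within 250 bp and 2 of 242 (0.826%) over 250 bp downstream. Within 250 bp of the TSS, 26 of 395 CpG-poor members (6.58%) and 4 of 1173 CpG-rich members were called. Promoters shared by 2 or more genes held 3 calls in 314 members (0.955%).

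**Figure D3:**
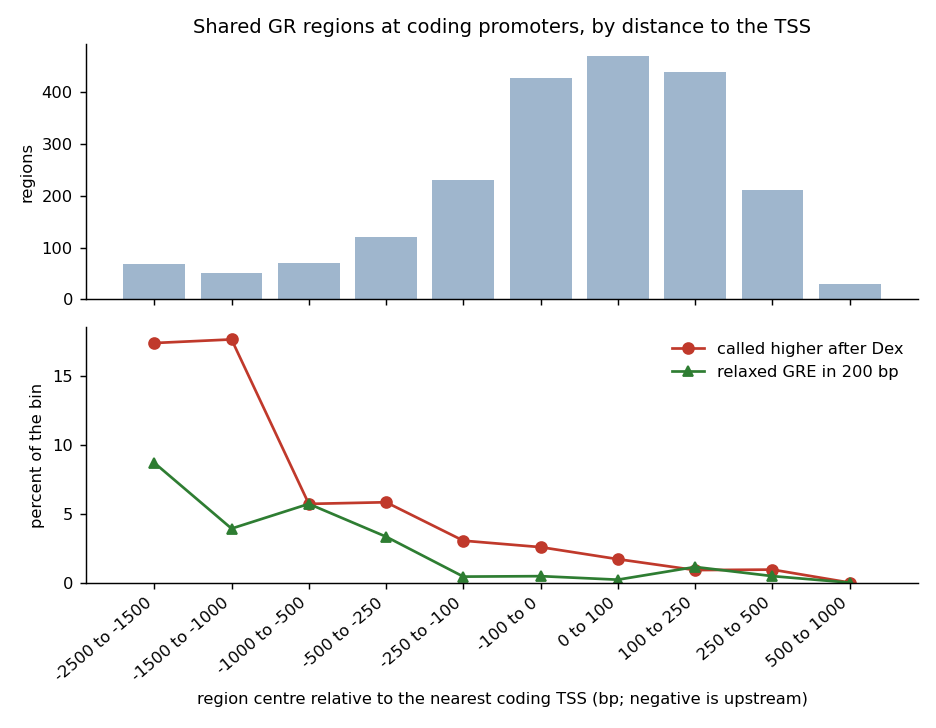
Number of members (upper panel) and the percent of each bin called higher after dexamethasone or holding a relaxed GRE (lower panel). Bins give the distance in bp of the region centre from the nearest coding TSS whose promoter window the region reached, with upstream to the left. Regions pile up at the TSS, while the called share is 17.4% and 17.6% in the 2 most distant upstream bins of 69 and 51 regions. It is 1.7% in the bin from 0 to 100 bp and 11.8% over all shared regions.

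The largest rise was at Lcn2, which encodes lipocalin 2, an iron-sequestering acute phase protein. Its region (chr2:32387613-32388646, over the TSS) had 10.1 and 9.75 RPKM in Dex, against 3.31 and 2.46 RPKM in Vehicle, a log2 fold change of 1.77 (SE 0.46, edgeR adjusted p = 0.00682). Next came Gpat4, an enzyme of the first step of glycerolipid synthesis, with 6.42 and 9.03 RPKM in Dex and 2.03 and 2.57 RPKM in Vehicle (log2 fold change 1.77, SE 0.39, edgeR adjusted p = 0.00141). The mitochondrial ornithine carrier of the urea cycle, Slc25a15, had 10.2 and 12.6 RPKM in Dex, against 3.91 and 2.96 RPKM in Vehicle, at a region centred 2090 bp upstream (log2 fold change 1.71, SE 0.42, edgeR adjusted p = 0.00442). At all 3 the groups were well apart, with the lower Dex value far above the higher Vehicle value.

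Ciart, a circadian repressor that acts on CLOCK and BMAL1, was the only CpG-rich promoter among the 10 largest rises. Its region 374 bp upstream had 7.18 and 11.5 RPKM in Dex and 2.43 and 3.52 RPKM in Vehicle (log2 fold change 1.67, SE 0.44, edgeR adjusted p = 0.00785). Ifitm2, an interferon-induced membrane protein whose promoter overlaps that of Gm45717, had 15.2 and 18.6 RPKM in Dex and 6.2 and 4.81 RPKM in Vehicle (log2 fold change 1.61). Hif3a, a hypoxia-inducible factor subunit, had 6.79 and 10.2 RPKM in Dex and 2.48 and 3.24 RPKM in Vehicle (log2 fold change 1.59). The other 4 were Fam107b, Vapa (an endoplasmic reticulum contact site protein), Ank3 (an ankyrin of the membrane skeleton) and St5, with log2 fold changes of 1.58, 1.57, 1.54 and 1.51. Their lowest Dex value was 4.97 RPKM, at Fam107b, and their highest Vehicle value was 3.98 RPKM, at St5.

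**Figure D4:**
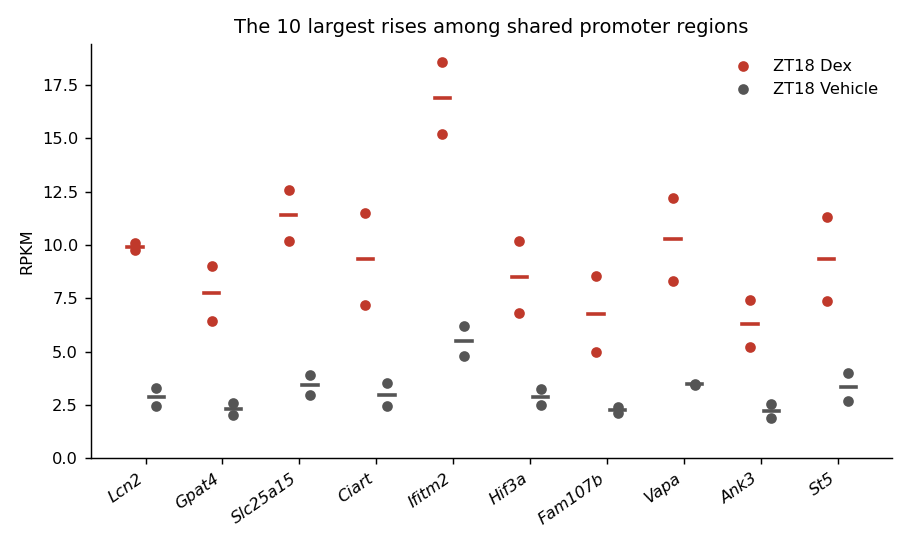
RPKM in each ZT18 Dex and ZT18 Vehicle library (points) with the mean of each group of 2 (short lines) for the 10 largest rises among the members. At every one of the 10 genes both Dex points lie above both Vehicle points, a condition of the rule that picked them, and Ifitm2 has the highest levels, 15.2 and 18.6 RPKM in Dex and 6.2 and 4.81 RPKM in Vehicle.

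Among known direct targets of GR, 11 of 30 listed genes had a member, with 15 members in all, of which 3 were called higher and 0 lower, against 3.02% of all members and 11.8% of all shared regions called higher. The median log2 fold change of these 15 was 0.58, against 0.14 for all members and 0.43 for all shared regions, and with TMM factors these medians were 0.11, -0.33 and -0.04. Fkbp5 had 3 members. The one centred 1566 bp upstream of the nearest TSS (chr17:28512543-28513302) had the highest Dex mean of the list, 25.3 and 38.1 RPKM in Dex, against 7.76 and 14.8 RPKM in Vehicle (log2 fold change 1.5, SE 0.42, edgeR adjusted p = 0.0112). The Fkbp5 region that holds the GRE printed above had 16.8 and 15.9 RPKM in Dex and 6.43 and 10.04 RPKM in Vehicle, and the third, at another TSS of the gene, had 6.45 and 10.3 RPKM in Dex and 4.32 and 6.27 RPKM in Vehicle. Both had Dex above Vehicle in all pairs of libraries and did not pass the test. The Dex region with the GRE was narrower than its Vehicle region, with 225 and 216 reads in Dex and 263 and 131 reads in Vehicle, so that its order in RPKM rests on the width correction.

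Metallothioneins bind zinc and copper and are classical glucocorticoid targets. Mt2 had 19.4 and 25.3 RPKM in Dex, against 8.23 and 7.81 RPKM in Vehicle, 1144 bp upstream of its TSS (log2 fold change 1.48, SE 0.44, edgeR adjusted p = 0.0181). The neighbouring Mt1, at its TSS, had 13.6 and 15.6 RPKM in Dex and 7.30 and 5.10 RPKM in Vehicle and did not pass. Both members hold a relaxed GRE.

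Per1 stood out by its level in vehicle. The region 1934 bp upstream had 14.5 and 19.7 RPKM in Dex and 12.5 and 20.5 RPKM in Vehicle, and that 770 bp upstream had 15.4 and 19.1 RPKM in Dex and 9.24 and 15.3 RPKM in Vehicle. The groups overlapped at the distal region, and at the proximal one Dex 1 barely exceeded Vehicle 2. Neither was called, although both hold a GRE. Both lie downstream of a coding TSS that is nearer than the one these distances refer to. Of 23 clock genes only Per1, Ciart and Clock had a member. Of their 4 members that at Ciart alone was called higher, against 11.8% of all shared regions. Clock itself had 2.35 and 3.90 RPKM in Dex and 1.77 and 2.43 RPKM in Vehicle.

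The gene of the receptor, Nr3c1, had 2 members, neither of them called. One had 3.19 and 2.90 RPKM in Dex and 2.50 and 2.30 RPKM in Vehicle, and the other 2.29 and 3.17 RPKM in Dex and 2.43 and 1.05 RPKM in Vehicle. Of 30 genes for chaperones and coregulators of nuclear receptors, 5 had a member. Of their 8 members 1 was called higher, that at Fkbp5, against 11.8% of all shared regions.

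Enzymes of glucose and amino acid metabolism are the textbook output of hepatic GR. Of 20 gluconeogenesis and glycogen genes 6 (30%) had a member, against 10.9% of all coding genes. In the ribosomal, oxidative phosphorylation, proteasome and spliceosome lists described below the share was 20.5% to 28.6%. Of the 6 members at gluconeogenesis and glycogen genes 0 were called in either direction. G6pc, the last enzyme of glucose release, had 7.94 and 11.5 RPKM in Dex and 4.65 and 6.45 RPKM in Vehicle, and Pck1, which makes phosphoenolpyruvate, had 7.23 and 9.5 RPKM in Dex and 6.79 and 4.91 RPKM in Vehicle. Both Dex libraries were above both Vehicle libraries at 4 of the 6, against 51.5% of all shared regions, and the list's median log2 fold change was 0.62, or 0.12 with TMM factors. Of 24 genes of amino acid catabolism and the urea cycle 4 (16.7%) had a member. Of the 4 members 2 were called higher, against 11.8% of all shared regions. Got1 had 12.2 and 9.75 RPKM in Dex and 3.01 and 5.72 RPKM in Vehicle (log2 fold change 1.35, SE 0.45, edgeR adjusted p = 0.0334). Aass, the enzyme that begins lysine breakdown, had 5.05 and 6.65 RPKM in Dex and 1.97 and 2.75 RPKM in Vehicle (log2 fold change 1.33, SE 0.43, edgeR adjusted p = 0.0294). The members at Gpt and Glul were not called, and at Glul the groups overlapped, with 9.41 and 9.42 RPKM in Dex and 7.56 and 10.9 RPKM in Vehicle.

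Among the 17 lists, bile acid and cholesterol genes had the largest share of promoters with a member, 11 of 22 (50%). Of all coding genes 10.9% had one. In this list 1 of 10 members was called higher, against 11.8% of all shared regions. That was Abcb11, the bile salt export pump, with 4.62 and 7.23 RPKM in Dex and 2.23 and 2.89 RPKM in Vehicle (log2 fold change 1.24, SE 0.37, edgeR adjusted p = 0.0160), and the call was lost with TMM factors. Cyp7a1, the rate-limiting enzyme of bile acid synthesis, had 5.45 and 9.22 RPKM in Dex and 3.47 and 4.55 RPKM in Vehicle and missed the threshold. Nr0b2 and Cyp27a1 had Dex above Vehicle in every pair as well, whereas at Hmgcs1, of cholesterol synthesis, both Dex values (2.53 and 2.11 RPKM) lay below both Vehicle values (2.72 and 3.39 RPKM). Of 20 genes of fatty acid oxidation and ketogenesis 9 had a member, with 0 of 8 members called in either direction.

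Acute phase and inflammation genes had a member at 12 of 26 promoters (46.2%), against 10.9% of all coding genes. Of the 12 members 2 were called higher, against 11.8% of all shared regions. These were at Lcn2 and at Lbp, the lipopolysaccharide-binding protein. Lbp had 9.56 and 12.6 RPKM in Dex and 4.76 and 3.94 RPKM in Vehicle (log2 fold change 1.34, SE 0.40, edgeR adjusted p = 0.0181). Complement C3 had 10.4 and 12.3 RPKM in Dex and 5.13 and 6.69 RPKM in Vehicle, and Saa1, a serum amyloid, had 11.0 and 10.5 RPKM in Dex and 6.2 and 6.36 RPKM in Vehicle. Neither passed the test, although both Dex values lay above both Vehicle values at each, as at 8 of the 12 members, against 51.5% of all shared regions. All 12 members had a positive log2 fold change in the fit to library totals, with a median of 0.68, against 8 of 12 and a median of 0.19 with TMM factors. Only 1 of the 12 was CpG-rich. Of 24 secreted hepatocyte proteins 4 had a member and of 27 hepatocyte transcription factors 1 had (Nr1h4, the bile acid receptor), with 0 calls in either direction with library totals and 1 secreted protein member (Hamp) lower with TMM factors.

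**Figure D5:**
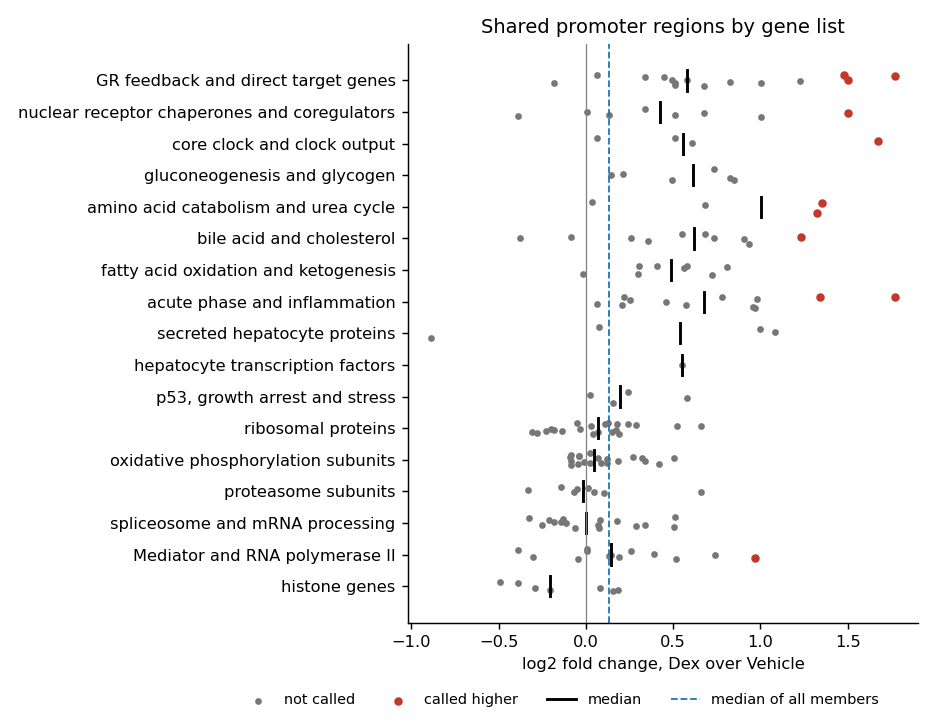
Log2 fold change of Dex over Vehicle for each member in 17 gene lists (points, red where called higher), with each list's median (black bar) and the median of all members, 0.14 (dashed line); a region at a gene of several lists is drawn in each. Metabolic and acute phase lists have medians between 0.49 and 1.00, and ribosomal, oxidative phosphorylation, proteasome and spliceosome lists have medians between -0.02 and 0.07; the TMM scaling would move all points to the left by about the same amount.

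GR regions were also found at promoters of housekeeping genes. Ribosomal protein genes had a member at 21 of 83 genes (25.3%) and oxidative phosphorylation subunits at 20 of 79 (25.3%). Spliceosome and mRNA processing genes had one at 16 of 56 (28.6%) and proteasome subunits at 8 of 39 (20.5%). Of all coding genes 10.9% had one. In each list 0 members were called in either direction, also with TMM factors. Nearly all were CpG-rich, 18 of 21, 19 of 20, 16 of 16 and 8 of 8 in that order, and none held a GRE. With 0.561% of all CpG-rich members called, the absence of calls says nothing particular of these lists. Their median log2 fold changes were 0.07, 0.05, 0.00 and -0.02, below the 0.14 of all members, and with TMM factors they were -0.41, -0.41, -0.49 and -0.50, below the -0.33 of all members. The strongest, Rpl27, had 6.57 and 7.79 RPKM in Dex and 3.9 and 5.24 RPKM in Vehicle. Psma6, whose ETS site is printed above, had 4.66 and 6.43 RPKM in Dex and 2.78 and 4.35 RPKM in Vehicle. Rps6 had 3.09 and 3.79 RPKM in Dex and 1.91 and 4.57 RPKM in Vehicle, so that the groups overlapped. Sf3b1, a core splicing factor, had 3.48 and 3.34 RPKM in Dex and 2.21 and 2.65 RPKM in Vehicle.

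Genes of Mediator and RNA polymerase II had a member at 13 of 72. Of their 13 members 1 was called higher, against 11.8% of all shared regions. That was Taf5 (a TFIID subunit), which had 4.08 and 2.87 RPKM in Dex and 2.05 and 1.41 RPKM in Vehicle. Its Dex region was narrower than its Vehicle region, with 77 and 55 reads in Dex and 159 and 35 reads in Vehicle, and the call was lost with TMM factors and with DESeq2, while 1 member of the list (Med21) passed as lower with TMM factors. Histone genes had a member at 9 of 78, with 7 members and 0 calls in either direction, although 2 (Hist1h4d and Hist1h1c) passed as lower with TMM factors, and reads of near-identical histone copies may be split between genes. Of 31 genes of p53, growth arrest and stress responses 4 had a member, all CpG-rich and none called.

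Other called members were named after their values were seen, for their known roles in liver. Their edgeR adjusted p lay between 0.00966 (Mgst1) and 0.0447 (Acsl5). Several encode enzymes of small-molecule metabolism. Bhmt, which remethylates homocysteine, had 11.5 and 14.3 RPKM in Dex and 5.24 and 3.85 RPKM in Vehicle (log2 fold change 1.49). Nnmt, which methylates nicotinamide, had 2 members, both called with a log2 fold change of 1.33, at the TSS (8.52 and 12.9 RPKM in Dex, 3.98 and 4.61 RPKM in Vehicle) and 1053 bp upstream (7.6 and 8.51 RPKM in Dex, 2.72 and 3.78 RPKM in Vehicle). Etnk2 (ethanolamine kinase), Mgst1 (a microsomal glutathione transferase), Bbox1 (carnitine synthesis), Dpyd (pyrimidine breakdown) and Acsl5 (fatty acid activation) had log2 fold changes of 1.47, 1.46, 1.25, 1.21 and 0.95, and the call at Acsl5 was lost with TMM factors. Cyp2d11 and Cyp2d9, cytochromes P450 of a multigene cluster, both rose at regions about 2 kb upstream, with 8.69 and 11.7 RPKM in Dex and 3.86 and 3.73 RPKM in Vehicle at Cyp2d11. Ugt1a5, one of the glucuronosyltransferases that share exons, had 7.31 and 9.39 RPKM in Dex and 2.28 and 4.69 RPKM in Vehicle.

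Secreted and membrane proteins were also among the calls. Serpina1b, an α1-antitrypsin, had 7.07 and 10.9 RPKM in Dex and 2.94 and 3.84 RPKM in Vehicle (log2 fold change 1.42, edgeR adjusted p = 0.0181). Apof, an apolipoprotein whose promoter is shared with Stat2, had 9.92 and 12.7 RPKM in Dex and 4.31 and 5.49 RPKM in Vehicle (log2 fold change 1.22). The ferritin heavy chain Fth1 had 7.23 and 10.7 RPKM in Dex and 2.77 and 4.60 RPKM in Vehicle (log2 fold change 1.31). Lifr, the receptor of leukaemia inhibitory factor, rose at a region 1873 bp upstream of one TSS (9.99 and 13.0 RPKM in Dex, 4.12 and 6.14 RPKM in Vehicle, log2 fold change 1.19). A second Lifr member, near another TSS and with a relaxed GRE, was low in all libraries, with 1.80 and 2.71 RPKM in Dex and 2.52 and 2.89 RPKM in Vehicle. Reads from near-identical copies, as in the Cyp2d, Serpina1 and Ugt1a families, may be split between genes, and the placement of such reads is not described.

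Of 33 called members for which alternatives were followed, which are those named here except BC025920 and Ripk4, 29 passed with TMM factors (those lost were Taf5, Mia2, Acsl5 and Abcb11) and 31 with DESeq2 on library totals. With DESeq2's own size factors 22 passed, and with the total over matched regions as library size 23. No call of these 33 was kept without Dex 2 or without Vehicle 1, 12 were kept without Dex 1 and 3 without Vehicle 2.

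Several genes carried more than 1 member. Pde4d (a cAMP phosphodiesterase) and Serpina3m (a protease inhibitor of a multigene cluster) had 4 each, and Fkbp5, Hjurp and Mia2 had 3 each. The Pde4d members, at separate start sites of a long gene, were all low, from 1.61 to 3.65 RPKM in Dex and from 1.63 to 3.49 RPKM in Vehicle. The Serpina3m members were higher, from 6.25 to 11.7 RPKM in Dex and from 3.6 to 8.2 RPKM in Vehicle, and 2 of the 4 also overlap the promoter of Serpina3k. Of the 3 Mia2 members, that 1494 bp upstream was called higher, with 6.1 and 6.96 RPKM in Dex and 2.63 and 2.8 RPKM in Vehicle (log2 fold change 1.27). The Mia2 member at a CpG-rich start site, 3 bp from the TSS, had 3.91 and 4.76 RPKM in Dex and 1.89 and 3.99 RPKM in Vehicle, so the groups overlapped. At Hjurp, a histone chaperone gene, the CpG-rich member at the TSS had 13.5 and 14.1 RPKM in Dex and 9.81 and 14.2 RPKM in Vehicle, and none of its 3 was called.

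At the 8 members with the highest vehicle signal, ranked by their Vehicle values, the groups mostly overlapped. This did not hold for high vehicle signal at large. Among the 106 members in the top 5% by vehicle signal, both Dex libraries exceeded both Vehicle libraries at 47.2%. The same share was 32.3% of all members and 51.5% of all shared regions. Gm10800 had 166 and 135 RPKM in Dex and 163 and 127 RPKM in Vehicle, in a window wholly covered by annotated repeats (100%). Brox had 29.3 and 27.9 RPKM in Dex and 28.3 and 23.7 RPKM in Vehicle, and Sfi1 15.6 and 16.4 RPKM in Dex and 17.3 and 16.1 RPKM in Vehicle. Groups overlapped at all 3, as they also did at Tex14 and Eapp. Of the 8 regions, which include 2 at Per1 and 1 at Hjurp, those at Per1 alone belong to a gene of the glucocorticoid list. Whether their signal needs GR was not tested, since no input or receptor-null library was used here.

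No member fell by the test with library totals. The lowest log2 fold changes with both Dex libraries below both Vehicle libraries were at Hamp, Nceh1, Urb1, Ptpn9 and 2610301B20Rik, and 4 of the 5 are CpG-rich. Hamp, which encodes the iron hormone hepcidin, is the CpG-poor one, with 3.77 and 2.56 RPKM in Dex and 4.03 and 8.05 RPKM in Vehicle (log2 fold change -0.89, SE 0.34, edgeR adjusted p = 0.0648). Nceh1, a cholesterol ester hydrolase, had 2.34 and 2.48 RPKM in Dex and 2.68 and 5.90 RPKM in Vehicle (log2 fold change -0.74, edgeR adjusted p = 0.110). At both Vehicle 2, the library with the fewest reads (86 reads at Hamp and 52 reads at Nceh1), lay far above the other 3 libraries. With TMM factors Hamp, Nceh1, Ptpn9 and 2610301B20Rik passed as lower, and without width correction Nceh1, Urb1, Ptpn9 and 2610301B20Rik turned positive.

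Of the listed markers of liver cell types, 1 had a shared region at its promoter. Among 12 hepatocyte markers this was 8.33%, near the 10.9% of all coding genes. The marker was Fgb, with 4.49 and 6.15 RPKM in Dex and 3.52 and 5.97 RPKM in Vehicle. In the lists for Kupffer cells, endothelium, stellate cells, cholangiocytes and lymphocytes, of 10 to 12 genes each, 0 had a member. The cell makeup of the samples was thus not checked by these promoters.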

How the data were processed

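The authors aligned paired-end reads to mm10 and called regions for each treatment across the ZT6 and ZT18 libraries, and regions over the mm10 blacklist were removed (Bowtie 1.1.0, SAMtools 1.2 and MACS2 2.1.1 per the submitters' processing notes). They deposited, for each region and library, whole read counts, RPKM and a signal column. The deposited signal had its own factor in each treatment and was not used. A spike-in was added, and no factor for it was found. The ZT6 tables, with 20 value columns, were not used. Library totals were recovered from the deposited counts, RPKM and widths.

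Regions were matched with bedtools 2.31.1 and tested with edgeR 4.0.16 (quasi-likelihood, library total times region width as offset, Benjamini-Hochberg over 5665 regions, a minimum of 10 reads in 2 libraries that all regions met). The prior degrees of freedom were infinite and the common dispersion was 0.0529, so an SE does not carry the region's own replicate spread. In counts simulated for Dex against Vehicle on 5665 regions, the test found 26% of 2-fold and 98% of 4-fold changes and called 6 of 5465 regions that had none. The simulation used this common dispersion for every region and no shift between replicates, unlike the Vehicle pair here. These rates thus need not hold for these libraries. Single values across libraries were compared by exact permutation. GENCODE M21 gave promoters and exons, and sequences came from the NCBI GRCm38 genome, whose letters matched 500 of 500 RefSeq promoters compared. Base composition and 12 motifs were taken in 200 bp about the centre of the dexamethasone region.

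The members, the 17 gene lists and the 6 marker lists were chosen with earlier results of these data known. Named were up to 10 largest rises past the threshold with all Dex above all Vehicle values and signal above the median, up to 5 lowest values where no fall passed, the 8 highest in vehicle, up to 3 of each list by Dex signal, 5 genes with most members and the regions beside the window's edge. Further called members, and further genes given as values only, were named after their values were seen. Alternatives left out each library or the width correction, or used TMM, the matched-region total, DESeq2 1.42.0, other read minimums, a replicate block, a 50% overlap, or other promoter and motif windows.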

Additional observations from a re-analysis of the deposited data

How the results depend on the processing

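The count of members called higher depended on scaling, on width and on single libraries. Against 64 higher, 0 lower and a median log2 fold change of 0.14, TMM factors gave 36, 62 and -0.33, the total over matched regions as library size gave 26, 76 and -0.41, and DESeq2 with its own size factors gave 26, 15 and -0.32. Without width correction there were 1038 higher and 2 lower, with a median of 0.72. Leaving out 1 library at a time gave 0 to 23 higher and 0 to 5 lower. The replicate numbers are only shared names (correlation of same-numbered deviations 0.088 by Spearman over all shared regions, 2 pairs), and the fit with the replicate block gave 302 higher and 8 lower (background 37.5% and 0.459%) with 64 of the 64 calls kept. DESeq2 on library totals, other count minimums, a 50% overlap and other promoter windows kept the counts within 1.5 times. The 90 higher calls of DESeq2 on library totals held 54 of the 64. At a 50% overlap 2 of the 33 followed calls, among them Ciart, were no longer in the set and the other 31 passed. The cause was not tested, beyond the fewer samples when a library is left out. Without width correction the log2 fold change was 0.81 at Nceh1, 0.45 at Urb1, 1.40 at Ptpn9, 1.29 at 2610301B20Rik and -0.56 at Taf5. The relaxed GRE was found in 0.519% of members in a window of 100 bp and in 3.3% over the whole region. The promoter contrast of -0.60 lay between -0.76 and -0.44 in every alternative that applies to it. Scaling of libraries cannot change that contrast, and DESeq2 and the block do not apply to it. Median reads of 50 per member in Vehicle 2 limit what can be called.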

Other observations

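Further motif classes were described by their levels alone. Calls are few in each and are to be read beside the 3.02% of all members and 11.8% of all shared regions called higher. The 7 members with a D-box had median RPKM of 6.34 and 9.35 in Dex and 3.57 and 4.26 in Vehicle, with 0 calls. Their median log2 fold change with library totals was 0.87, against 0.43 over all shared regions, and was not taken with TMM factors. The 12 members with the HNF4A core element had medians of 4.65 and 6.50 in Dex and 2.87 and 4.17 in Vehicle, with 2 calls, and the 48 with a C/EBP motif 3.81 and 4.63 in Dex and 2.70 and 3.77 in Vehicle, with 1 call. The 34 members with an NRF1 motif and the 47 with a YY1 motif were low in all libraries, with medians of 2.66 and 2.53 in Dex and 2.17 and 2.96 in Vehicle for NRF1 and of 2.49 and 2.65 in Dex and 2.31 and 2.91 in Vehicle for YY1.

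The 5% of members with the highest vehicle signal (106 regions) had 11.3% CpG-rich, a median GC content of 52.5% and a relaxed GRE in 10.4%, against 4.57%, 50% and 4.69% at the shared regions away from promoters. The lower 80% (1695 regions) had 75.3% CpG-rich, a median GC content of 64.0% and a relaxed GRE in 0.472%. With library totals the median log2 fold change was 0.51 in the top 5% and 0.11 in the lower 80%, against 0.43 over all shared regions.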
